A study of Drosophila melanogaster with 6 samples.

Results

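Orphan small nucleolar RNAs (snoRNAs) and the small Cajal body RNAs (scaRNAs) were followed between input RNA and RNA recovered with the protein Isha. Members were taken by gene symbol, as every gene whose dm6 symbol starts with scaRNA: or snoRNA:, leaving out the rRNA guides whose symbols start with snoRNA:Psi or snoRNA:Me. This gave 90 of the 17612 genes in the count table. They comprise 17 scaRNAs, 24 snoRNAs whose symbols carry Or- for orphan (9 of the H/ACA box class and 15 of the C/D box class), 18 copies of numbered RNAs such as U3, U14, U31 and U49, and 31 others, most of them named after a host gene. The symbols therefore reach beyond orphans in the strict sense: the scaRNA symbols name a spliceosomal RNA and a position, U3 and U14 are well-known rRNA processing factors, and the U49 copies carry a synonym that names a methylated 28S rRNA base.

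All material was nuclear extract of wild-type Oregon R Drosophila melanogaster, prepared from whole embryos of mixed stages aged 0 to 24 h. In the Isha RIP group (3 libraries), 12 mg of extract per immunoprecipitation was cleared on protein A beads with preimmune rabbit serum and then bound to protein A beads with rabbit serum raised against Isha, and the bound RNA was fragmented and sequenced as single 50 bp reads. The input group (3 libraries) carried no antibody. The series set out to find su(Hw) and other transcripts enriched with Isha in vivo. No control immunoprecipitation was analysed here, and RNA held by Isha cannot be told apart from RNA held by serum or beads. Whether each library had an extract of its own is not stated by the labels. The p-values therefore rest on the spread among these 6 libraries, which may be only technical.

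Total counts were 29344529 to 31680173 per input library and 8386414 to 14342543 per RIP library. Input was on average 2.94 times as deep, and 3 counts, taken as the floor for counting error, came to 0.0947 to 0.102 CPM per input library and 0.209 to 0.358 CPM per RIP library. Marker genes of neurons, muscle, cuticle, fat body and hemocytes were detected in every input library, with mean input levels of 16.1 to 10363 CPM, those of germ cells had means of 5.16 and 8.65 CPM, and 4 adult markers had means of at most 0.361 CPM. The 4 neuronal markers, at 133 to 209 CPM on average in input, were all enriched and reached 200.2 to 384 CPM on average in RIP. Over all genes tested, 27.0% were enriched. Markers of muscle, cuticle, fat body and hemocytes were mixed. Of these, Mlp84B, bt, Cpr49Ac, ect and apolpp were enriched, and Mhc, TwdlM, Hml and Pxn were depleted. The germ cell markers vas and pgc did not pass. Spliceosomal snRNAs made up 3.48% ± 0.250 (SD, n = 3) of input counts and 0.173% ± 0.0124 (SD, n = 3) of RIP counts, and pseudouridylation guide snoRNAs 3.54% and 1.17%. These levels moved with the groups compared, and their part in the results was not tested.

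SnoRNAs are short, stable RNAs of the nucleolus that guide chemical modification of other RNAs. Box C/D RNAs guide 2′-O-methylation with the methyltransferase fibrillarin, and box H/ACA RNAs guide pseudouridylation with the dyskerin homologue Nop60B. ScaRNAs are built the same way, some with both kinds of box, but gather in Cajal bodies and guide modification of the spliceosomal snRNAs. An orphan snoRNA has no assigned rRNA or snRNA target. In flies most are cut out of introns of a host gene, either a protein gene or one of the noncoding Uhg genes. Of the members, 64 lay within an intron of an annotated gene on the same strand, 11 overlapped an exon of one and 15 lay outside such genes. Reads of unspliced host RNA cannot be told apart from the mature small RNA in these counts.

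Members were depleted in Isha RIP more often than they were enriched, but the spread between them was wide. Of the 66 that passed the filter on low counts, 26 were depleted and 9 were enriched at an adjusted p under 0.05 by edgeR's quasi-likelihood test, and 31 did not pass. Over all 11764 genes tested, 30.4% were depleted and 27.0% enriched, against 39.4% and 13.6% of the tested members. The median log2 fold change of RIP over input was -0.58 for members and -0.05 for all genes tested. Members ranged from -4.31 to 2.36, with quartiles of -1.59 and 0.30, while the middle 90% of all genes ran from -1.66 to 1.44. All RIP libraries lay below all input libraries for 27 members and above them for 10, against 34.0% and 30.0% of all genes tested, and for 29 members the groups overlapped. A change of at least 2-fold was called for 22 depleted and 4 enriched members, 33.3% and 6.06% of those tested, against 12.8% and 8.63% of all genes tested.

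**Figure D1:**
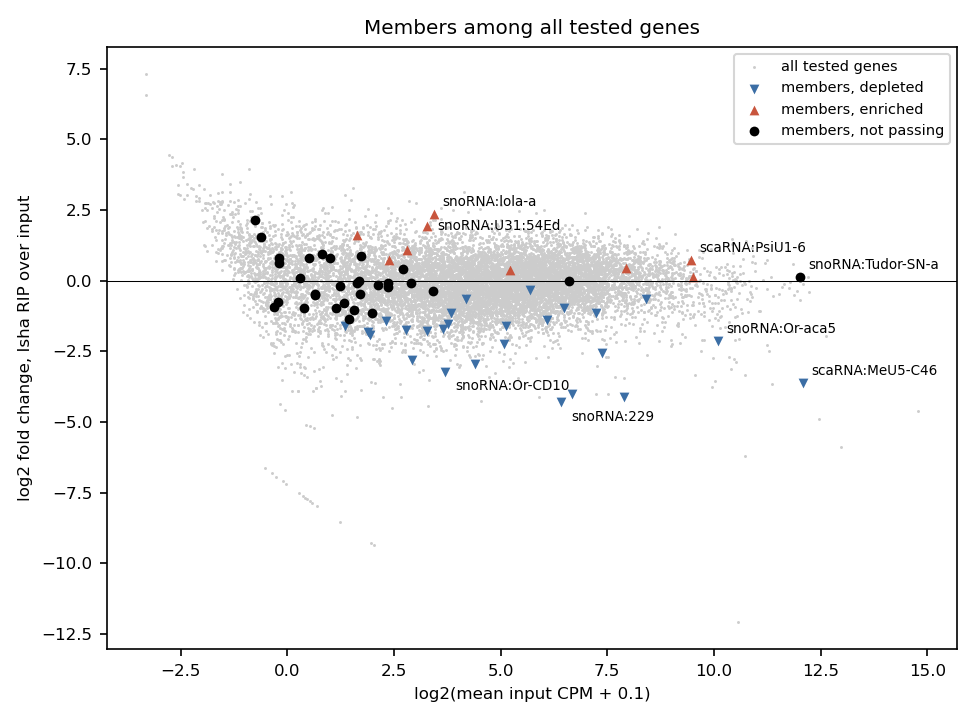
Each point is a gene: the horizontal axis is log2 of the mean input CPM plus 0.1, the vertical axis the log2 fold change of Isha RIP over input, grey points all 11764 tested genes and coloured points the 66 tested members by call. Members spread from -4.31 to 2.36 and lie below 0 more often than above it, with scaRNA:MeU5-C46 and snoRNA:Tudor-SN-a, the 2 most abundant in input, at -3.64 and 0.12.

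Fewer of the less abundant members were called, and the part of depth in this was not tested. Of 25 members with a mean of at least 10 CPM over the 6 libraries, 16 were depleted (64.0%) and 7 enriched (28.0%), against 36.8% and 35.9% of all tested genes at that level. Of 41 tested members under 10 CPM, 10 were depleted (24.4%) and 2 enriched (4.88%), against 18.0% and 9.94%. The 24 members that were not tested included 19 at 0 counts in every library: scaRNA:MeU1:95C-A24, scaRNA:MeU1b-A234, scaRNA:MeU4:25F-C137, snoRNA:660, snoRNA:83E4-5, snoRNA:CG43051-a, snoRNA:Or-aca2, snoRNA:Or-ACA6, snoRNA:Or-ACA7, snoRNA:Or-ACA8, snoRNA:Or-CD11b, snoRNA:Or-CD13, snoRNA:Or-CD15, snoRNA:Or-CD16, snoRNA:Or-CD17, snoRNA:Or-CD9a, snoRNA:Or-CD9b, snoRNA:snR38:54Eb and snoRNA:U29:54Ec. Exons of another gene on the same strand overlapped 10 of these 19, and 8 had no exon overlap on either strand. The other 5, scaRNA:MeU5-G38, snoRNA:CD-24, snoRNA:Or-CD14, snoRNA:U29:54Ed and snoRNA:U76:54Eb, had a few counts but too few to test.

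Members held 1.29% ± 0.0425 (SD, n = 3) of input counts and 0.833% ± 0.0301 (SD, n = 3) of RIP counts. A pair of long, abundant RNAs made most of this. The RNA scaRNA:MeU5-C46 held 33.3% ± 3.90 of the members' counts in input and 4.20% ± 0.258 in RIP (SD, n = 3 each), and snoRNA:Tudor-SN-a held 31.9% ± 4.32 of them in input and 54.7% ± 0.976 in RIP. Without scaRNA:MeU5-C46 the members' share of the library was 0.860% ± 0.0782 in input and 0.798% ± 0.0285 in RIP (SD, n = 3 each), with overlapping libraries. Without both RNAs it was 0.448% ± 0.0230 in input and 0.342% ± 0.0146 in RIP (SD, n = 3 each), and every RIP library lay below every input library. Among all snoRNA and scaRNA counts, rRNA guides included, members made up 26.4% ± 0.960 in input and 40.3% ± 0.804 in RIP (SD, n = 3 each).

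Per kilobase of exon, the levels of members spanned several orders of magnitude and their order differed between the groups. In input the highest was scaRNA:MeU5-C46 at 13675 ± 1200 CPM per kb (SD, n = 3). It stood beside snoRNA:Tudor-SN-a at 13362 ± 2156, a difference smaller than their SDs, and snoRNA:Or-aca5 followed at 7375 ± 326. In RIP the order was snoRNA:Tudor-SN-a at 14517 ± 537, scaRNA:PsiU1-6 at 7312 ± 695 and snoRNA:Or-CD2 at 5649 ± 52.5 CPM per kb. In that group scaRNA:MeU5-C46 stood at 1099 ± 86.7 CPM per kb, also below snoRNA:Or-aca5 at 1664 ± 208.

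**Figure D2:**
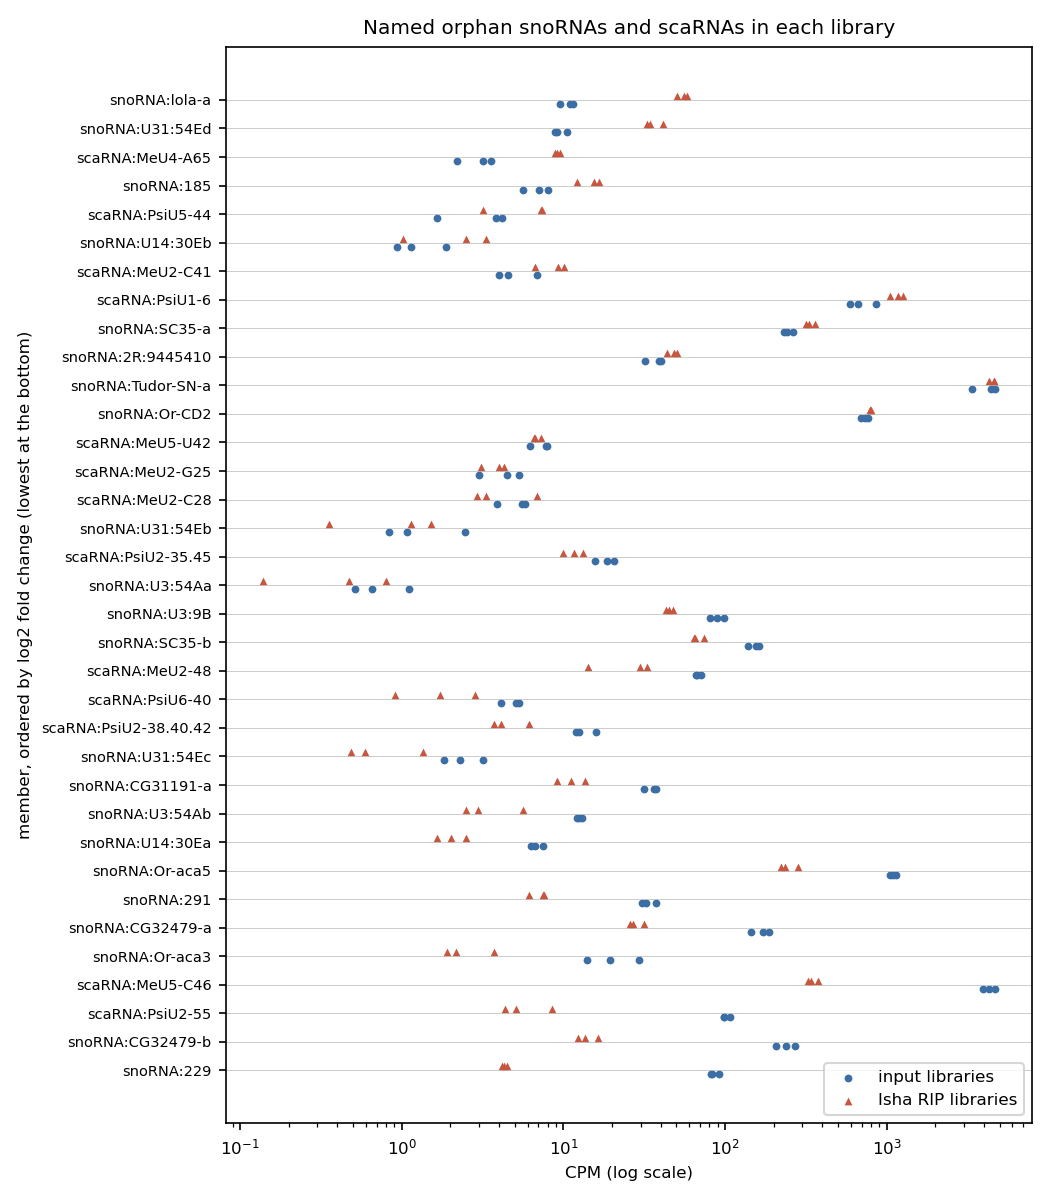
CPM on a log axis for the 35 members chosen by the naming rule, 1 row per member ordered by log2 fold change, with circles for the 3 input libraries and triangles for the 3 Isha RIP libraries. The groups are far apart at both ends, for snoRNA:229 (4.15 to 4.49 CPM in RIP, 81.7 to 91.7 in input) and for snoRNA:lola-a (50.6 to 57.9 in RIP, 9.47 to 11.4 in input).

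Among the scaRNAs, 13 of 17 were tested: 6 were depleted (46.2%), 3 enriched (23.1%) and 4 did not pass. Over all genes tested, 30.4% were depleted and 27.0% enriched. The median log2 fold change of the 13 was -0.23. Of the 6 with Psi in the symbol, 4 were depleted (66.7%) and 1 enriched (16.7%). Of the 7 tested with Me in the symbol, 2 were depleted and 2 enriched (28.6% each).

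The U5 guide scaRNA:MeU5-C46, also known as U85, is the RNA that carries both C/D and H/ACA boxes and was among the first scaRNAs described. This one is 316 bases long and lies at 3R:7472907-7473222 (dm6) within an intron of CG1142. It stood at 4702, 4318 and 3944 CPM in input and at 325, 338 and 378 CPM in RIP. The groups were far apart, and the RNA was depleted 12.4-fold (log2 fold change -3.64, SE 0.06, edgeR adjusted p = 2.63e-23). Its host transcript went the other way, from 19.9 to 58.2 CPM (log2 fold change 1.55, SE 0.14, edgeR adjusted p = 2.94e-09). The remaining tested U5 guides were far less abundant. The guide scaRNA:MeU5-U42 stood at 6.18 to 7.88 CPM in input and 6.62 to 7.25 in RIP, and scaRNA:PsiU5-44 at 1.65 to 4.19 and 3.18 to 7.36 CPM, and in both the groups overlapped.

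U2, the snRNA that pairs with the intron branch point, is named in 7 of the 13 tested scaRNA symbols. The pseudouridylation guide scaRNA:PsiU2-55 stood at 107, 98.6 and 98.7 CPM in input and at 5.10, 4.38 and 8.51 CPM in RIP. It was depleted 16.1-fold with no overlap (log2 fold change -4.01, SE 0.16, edgeR adjusted p = 8.55e-16), while its host Prp8, a core spliceosome protein gene, had a log2 fold change of -0.53 (also depleted). The methylation guide scaRNA:MeU2-48 stood at 67.0, 65.8 and 71.4 CPM in input and at 14.2, 33.1 and 29.6 CPM in RIP, and was depleted (log2 fold change -1.40, SE 0.18). The guide scaRNA:PsiU2-38.40.42, named for 3 positions, fell from 13.4 ± 2.09 to 4.66 ± 1.30 CPM, and scaRNA:PsiU2-35.45 fell from 18.2 ± 2.51 to 11.5 ± 1.61 CPM (SD, n = 3 each).

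The other U2 methylation guides did not share that depletion. The guide scaRNA:MeU2-C41 stood at 6.89, 3.98 and 4.57 CPM in input and at 9.29, 10.1 and 6.65 CPM in RIP. Its groups overlapped and the enrichment was weak (log2 fold change 0.74, SE 0.30, edgeR adjusted p = 0.0364); it lost its call without input replicate 2 (0.59), input replicate 3 (0.66), RIP replicate 1 (0.68) or RIP replicate 2 (0.62). The guides scaRNA:MeU2-G25 and scaRNA:MeU2-C28 had log2 fold changes of -0.17 and -0.23, with overlapping groups and values that changed sign when 1 library was left out. The second of these is annotated with 49 bases, the only member shorter than a read.

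Guides to the other snRNAs included the abundant enriched scaRNA. The U1 guide scaRNA:PsiU1-6, at 3R:9713607-9713765 in an intron of dmt, stood at 592, 663 and 854 CPM in input and at 1173, 1047 and 1267 CPM in RIP. All RIP libraries were higher, and the enrichment was 1.65-fold (log2 fold change 0.73, SE 0.08, edgeR adjusted p = 1.11e-07), while dmt itself had a log2 fold change of 0.06 and did not pass. The U4 guide scaRNA:MeU4-A65 stood at 2.19, 3.19 and 3.56 CPM in input and at 9.06, 8.87 and 9.55 CPM in RIP, an enrichment of 3.07-fold without overlap (SE 0.31 on the log2 scale, edgeR adjusted p = 9.61e-05). Its host anchor was depleted (log2 fold change -0.70). The U6 guide scaRNA:PsiU6-40 was depleted, from 4.84 ± 0.658 to 1.83 ± 0.969 CPM (SD, n = 3 each, log2 fold change -1.41).

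Hosts of the other scaRNAs moved little or in no common direction. The hosts hfp of scaRNA:MeU2-48 (-0.03), Gp210 of scaRNA:PsiU2-35.45 (0.02), CG12316 of scaRNA:MeU5-U42 (0.00), lds of scaRNA:MeU2-C41 (-0.17) and skd of scaRNA:PsiU6-40 (-0.11) did not pass. Log2 fold changes of 0.39 for bur, the host of scaRNA:PsiU2-38.40.42, 0.31 for mask, that of scaRNA:MeU2-G25, and 1.09 for tra2, that of scaRNA:PsiU5-44, were called enriched, and -0.63 for Stt3A, that of scaRNA:MeU2-C28, depleted.

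U3 is the box C/D RNA needed for the first cleavages of the rRNA precursor, and U14 takes part in maturation of 18S rRNA. The X-linked copy snoRNA:U3:9B stood at 88.7, 80.6 and 99.0 CPM in input and at 43.1, 44.9 and 47.7 CPM in RIP, all below input (log2 fold change -0.98, SE 0.10, edgeR adjusted p = 1.07e-08). The chromosome 2R copy snoRNA:U3:54Ab was also depleted, from 12.5 ± 0.422 to 3.68 ± 1.69 CPM (SD, n = 3 each), and its neighbour snoRNA:U3:54Aa stood at 0.138 to 1.11 CPM over the 6 libraries and did not pass. Of the U14 copies in the noncoding host Uhg2, snoRNA:U14:30Ea was depleted (6.28 to 7.51 CPM in input, 1.66 to 2.49 in RIP, log2 fold change -1.74), while snoRNA:U14:30Eb stood at 0.934 to 1.87 and 1.02 to 3.32 CPM, which overlap. Uhg2 did not pass (-0.18). Reads from near-identical copies could be split or discarded by the counter, so values of single U3 and U14 copies are uncertain.

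The U31 copies, which belong to the C/D guides of the snoRNA cluster in the host Uhg1, gave unlike results. The copy snoRNA:U31:54Ed stood at 10.5, 8.89 and 9.15 CPM in input and at 34.3, 41.2 and 33.0 CPM in RIP. It was enriched 3.80-fold with no overlap (log2 fold change 1.92, SE 0.16, edgeR adjusted p = 4.68e-10), and Uhg1 was enriched as well (0.92). The copy snoRNA:U31:54Ec was depleted from 2.44 ± 0.690 to 0.812 ± 0.477 CPM (SD, n = 3 each), a call near the threshold (log2 fold change -1.61, SE 0.67, edgeR adjusted p = 0.0437). It lost that call in the fits without input replicate 1 (-1.78), 2 (-1.36) or 3 (-1.65) and without RIP replicate 2 (-1.46) or 3 (-1.32). The third copy, snoRNA:U31:54Eb, did not pass (-0.51). Copies of one RNA are uncertain for the reason given for U3.

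Of the 9 orphan H/ACA snoRNAs, 5 were tested, 3 were depleted (60.0%, against 30.4% of all genes tested) and the other 2 did not pass. The median log2 fold change of the 5 was -1.78. The abundant snoRNA:Or-aca5, at 2R:9095685-9095832 in an intron of Uhg4, stood at 1091, 1044 and 1140 CPM in input and at 235, 223 and 281 CPM in RIP. It was depleted 4.42-fold with no overlap (log2 fold change -2.14, SE 0.06, edgeR adjusted p = 4.08e-18). In the ribosomal protein gene RpL4, snoRNA:Or-aca3 fell from 13.9, 29.4 and 19.5 CPM to 2.15, 1.89 and 3.74 CPM (log2 fold change -2.95, SE 0.30), and RpL4 itself was depleted (-1.59). Outside the naming rule and picked after their values were seen, snoRNA:Or-aca1 was depleted (9.57 to 2.88 CPM), snoRNA:Or-aca4 had mean levels of 97.0 CPM in both groups (log2 fold change 0.00, SE 0.09; CG44403 overlaps it on the other strand), and snoRNA:Or-ACA9 was near 1 CPM and did not pass.

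Of the 15 snoRNAs with Or-CD in the symbol, 7 were tested, 1 was depleted and 1 enriched (14.3% each), with a median log2 fold change of 0.12. Over all genes tested, 30.4% were depleted and 27.0% enriched. Another 4 members, snoRNA:185, snoRNA:229, snoRNA:291 and snoRNA:684, are orphan C/D RNAs by a synonym only. With them, 11 were tested, 3 were depleted (27.3%) and 2 enriched (18.2%). The median was then -0.35, so its sign depends on how orphans are taken. The last of the 4, outside the naming rule, ran from 9.08 to 11.9 CPM over the input libraries and from 5.89 to 10.2 CPM over the RIP libraries, which overlap, and did not pass. The enriched one of the Or-CD symbols, snoRNA:Or-CD2, lies in the same host Uhg4 as snoRNA:Or-aca5. It stood at 730, 690 and 769 CPM in input and at 783, 793 and 797 CPM in RIP. The RIP libraries were all higher, but only 1.08-fold (log2 fold change 0.12, SE 0.04, edgeR adjusted p = 0.0223), and the call was lost with upper-quartile scaling (0.08) and without input replicate 1 (0.12), input replicate 2 (0.08) or RIP replicate 3 (0.10). Its exon also overlaps Ctu1, which runs the other way, and whether counting used strand is not stated in the sources used here. The depleted one, snoRNA:Or-CD10 in RpL7A, was singled out after its values were seen: 10.7, 12.7 and 15.2 CPM in input against 0.227, 1.89 and 1.87 CPM in RIP (log2 fold change -3.22, SE 0.38, edgeR adjusted p = 1.83e-07). Its 0.227 CPM in RIP replicate 1 was 2 counts, under the floor of 3.

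The remaining snoRNAs included the member of lowest log2 fold change. The C/D RNA snoRNA:229, listed among its synonyms as an orphan, lies at 2R:23073829-23073968 in an intron of Fib, the gene of fibrillarin. It stood at 82.6, 91.7 and 81.7 CPM in input and at 4.31, 4.49 and 4.15 CPM in RIP, a depletion of 19.8-fold with no overlap (log2 fold change -4.31, SE 0.14, edgeR adjusted p = 2.30e-17). Fib was depleted as well, by a log2 fold change of -1.43. The orphan C/D RNA snoRNA:291 in Prp39 stood at 30.6, 32.6 and 37.5 CPM in input and at 6.12, 7.57 and 7.48 CPM in RIP (log2 fold change -2.24, SE 0.17), whereas Prp39, whose yeast homologue is a U1 snRNP protein, was enriched (0.32). The snoRNA in CG31191, snoRNA:CG31191-a, fell from 35.0 ± 3.12 to 11.3 ± 2.24 CPM (SD, n = 3 each) while CG31191 was enriched (0.99); its exon overlaps an antisense RNA on the opposite strand.

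The most abundant snoRNA did not pass. At 3L:259970-260280 in an intron of Tudor-SN, the gene of a staphylococcal nuclease domain protein, snoRNA:Tudor-SN-a stood at 3392, 4426 and 4649 CPM in input and at 4624, 4322 and 4598 CPM in RIP. The groups overlapped (log2 fold change 0.12, SE 0.07, edgeR adjusted p = 0.126), and 6 of the 18 alternative fits called it enriched, among them the fit without input replicate 3 (0.21). Without input replicate 1 its value was -0.01. Tudor-SN itself was depleted by little (-0.14), a call lost in 9 of 17 alternative fits, with -0.14, -0.12 and -0.10 without input replicate 1, input replicate 3 or RIP replicate 2. The less abundant snoRNA:185, another orphan C/D RNA by its synonyms, was enriched without overlap, from 8.05, 5.63 and 7.02 CPM to 16.7, 12.2 and 15.4 CPM (log2 fold change 1.10, SE 0.23).

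In the 5 pairs compared, members cut from the same host, or lying side by side, differed from each other. The pairs were set after values had been seen, as all tested members of one host, or with no host within 1000 bases of each other, that had a mean of at least 5 CPM in one of the groups, which gave 5 pairs. The ratio of one member to the other within a library does not depend on scaling between libraries. In each pair the log2 ratios of RIP and input libraries did not overlap. Separation was common in these data. For single genes, all RIP libraries lay above all input libraries for 30.0% of those tested and below them for 34.0%. How often the ratios of other gene pairs separate was not computed, so the pairs are a description only. An exact permutation test over 3 against 3 libraries gave p = 0.1 for each, two-sided, the smallest value this design can give.

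The pair in lola, the gene of a family of BTB zinc finger transcription factors, lies 84 bases apart. There snoRNA:lola-a (2R:10536495-10536660) stood at 11.0, 9.47 and 11.4 CPM in input and at 55.4, 50.6 and 57.9 CPM in RIP, the highest log2 fold change of any tested member (2.36, SE 0.13, edgeR adjusted p = 6.63e-13). Its neighbour snoRNA:lola-b (2R:10536745-10536905) went the other way, from 15.2, 14.8 and 12.7 CPM to 6.01, 6.62 and 6.58 CPM (log2 fold change -1.15, SE 0.22, edgeR adjusted p = 9.82e-05). The log2 ratio of lola-a to lola-b was -0.42 ± 0.25 in input and 3.07 ± 0.14 in RIP (SD, n = 3 each). The host lola stood at a log2 fold change of 0.01 and did not pass. The other snoRNAs within it, looked at after their values were seen, did not pass either. For lola-c the log2 fold change was -0.96 (SE 1.03), with overlapping groups. For lola-d it was -1.14 (SE 0.50, edgeR adjusted p = 0.0549). All RIP libraries of lola-d lay below its input libraries, by little at the closest (2.60 against 2.64 CPM).

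The pair in SC35, the gene of a splicing factor of the SR family, lies 74 bases apart. A synonym gives the H/ACA class for snoRNA:SC35-a but none gives a class for snoRNA:SC35-b. There snoRNA:SC35-a (2L:12432798-12432950) stood at 265, 232 and 240 CPM in input and at 332, 359 and 315 CPM in RIP (log2 fold change 0.45, SE 0.06, edgeR adjusted p = 9.60e-07). The neighbouring snoRNA:SC35-b (2L:12433025-12433180) fell from 155, 138 and 162 CPM to 64.4, 74.5 and 64.7 CPM (log2 fold change -1.16, SE 0.08, edgeR adjusted p = 3.91e-11). Their log2 ratio moved from 0.70 ± 0.11 to 2.30 ± 0.05 (SD, n = 3 each), and SC35 itself did not pass (0.08).

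The pair in Uhg4 joins both box classes. The log2 ratio of snoRNA:Or-aca5 to snoRNA:Or-CD2 was 0.58 ± 0.01 in input and -1.69 ± 0.17 in RIP (SD, n = 3 each), so the H/ACA member was the more abundant of the pair in every input library and the less abundant in every RIP library. Uhg4 stood at 25.7 to 45.6 CPM in input and did not pass (0.06).

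On chromosome 2R, snoRNA:2R:9445205 and snoRNA:2R:9445410 lie 54 bases apart outside any annotated gene on their strand. The first fell from 7.54, 6.83 and 7.91 CPM to 0.340, 1.77 and 1.04 CPM (log2 fold change -2.82, SE 0.43). Its 0.340 CPM in RIP replicate 1 was 3 counts, at the floor. The second was enriched, from 40.2, 31.8 and 39.2 CPM to 44.0, 50.7 and 48.1 CPM (log2 fold change 0.36, SE 0.12, edgeR adjusted p = 0.0128), a call lost without input replicate 2 (0.26). Their log2 ratio moved from -2.30 ± 0.10 to -5.60 ± 0.96 (SD, n = 3 each). The lowest RIP ratio, -6.65, came from RIP replicate 1, where the first member was at the floor.

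The pair in Usp10, which encodes a ubiquitin protease, was depleted together but unequally. Here snoRNA:CG32479-b (3L:890270-890490) stood at 272, 237 and 207 CPM in input and at 16.3, 13.6 and 12.3 CPM in RIP (log2 fold change -4.10, SE 0.11, edgeR adjusted p = 1.49e-18). With 186, 170 and 145 CPM in input and 27.0, 25.9 and 31.6 CPM in RIP, snoRNA:CG32479-a was depleted less far (log2 fold change -2.56, SE 0.10, edgeR adjusted p = 1.12e-15). Their log2 ratio moved from 0.51 ± 0.03 (SD, n = 3) in input to between -1.36 and -0.72 in RIP. Usp10 was depleted by little (-0.19), a call lost in 5 of 18 alternative fits, among them the fits without input replicate 3 (-0.18) and without RIP replicate 3 (-0.15).

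**Figure D3:**
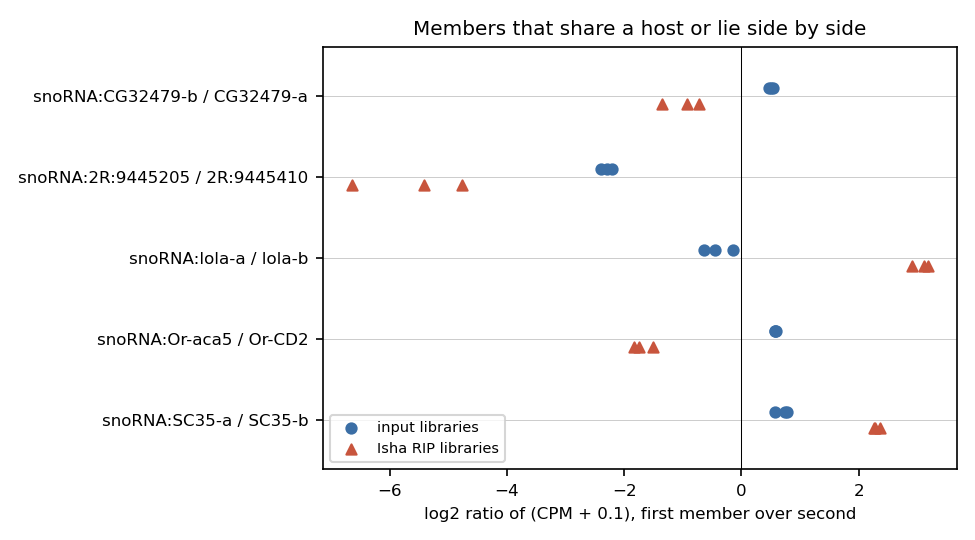
For each of the 5 pairs of members that share a host or lie side by side, the log2 ratio of CPM plus 0.1 of the first member to the second is drawn per library, circles for the 3 input and triangles for the 3 Isha RIP libraries. No pair overlaps between the groups, and the ratio moved up for the lola and SC35 pairs (by 3.49 and 1.61) and down for the Uhg4, 2R and Usp10 pairs.

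Over all members with a tested host, member and host values were loosely related. The 59 such members gave Pearson's r = 0.28 and Spearman's rho = 0.20 between member and host log2 fold change, as a description across genes that share libraries and, in some cases, a host. The member lay below its host for 40 of 59, with a median difference of -0.67. Among the 23 depleted members of this kind, the host was depleted for 9, enriched for 7 and not called for 7. Of the 7 enriched members, the host was depleted for 1, enriched for 1 and not called for 5. Of 52 tested hosts, 20 were depleted (38.5%) and 16 enriched (30.8%), against 30.4% and 27.0% of all genes tested. The median log2 fold change was 0.00 for these hosts and -0.05 for all genes tested.

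**Figure D4:**
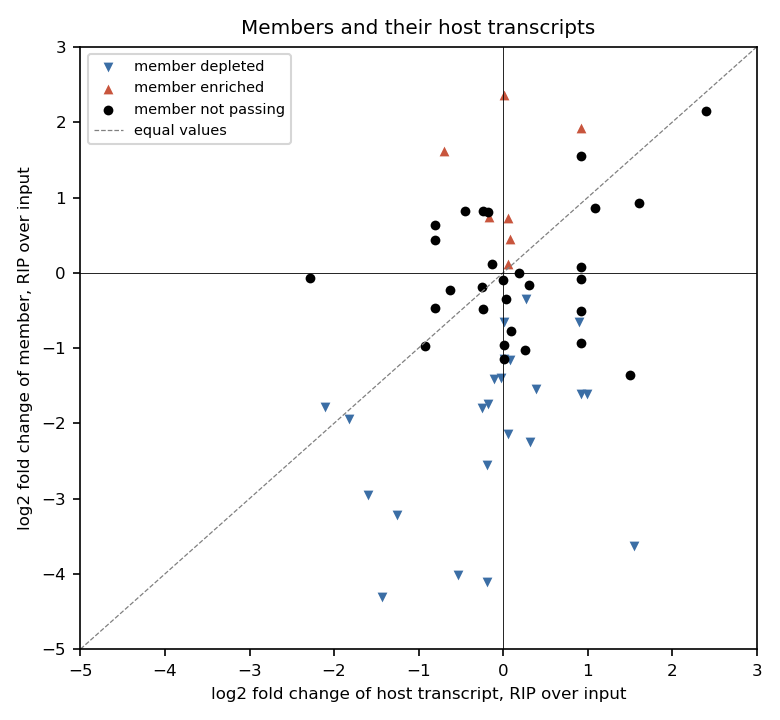
The log2 fold change of each of 59 members (vertical axis) is set against that of its host transcript (horizontal axis), both Isha RIP over input, with the dashed line at equal values. Of the 59 points, 40 lie below the line, and scaRNA:MeU5-C46 (member -3.64, host 1.55) lies farthest from it.

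Kinds of host were taken by symbol alone. All 8 hosts with RpL or RpS symbols were depleted, with a median log2 fold change of -0.86. Of their 9 tested members, 4 were depleted and 5 did not pass. Of the 4 tested Uhg hosts 2 were enriched, Uhg1 (0.92) and Uhg5 (2.40), and of their 12 tested members 3 were depleted and 2 enriched. Of 38 tested members in other hosts, 16 were depleted and 5 enriched, and of 7 outside any host 3 were depleted and 2 enriched. For comparison, 30.4% of all genes tested were depleted and 27.0% enriched. No difference between these kinds of host, or from all genes tested, was tested.

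The level of a member against its host's exons set apart RNAs that stand well above their host from those that do not. Per kilobase, 25 of the 59 members stood above their host's exons in input, and 25 of 59 in RIP. At the top in input, scaRNA:MeU5-C46 was 626 times as high as CG1142 exons, scaRNA:PsiU1-6 410 times as high as dmt and snoRNA:Tudor-SN-a 135 times as high as Tudor-SN. In RIP these ratios were 17.2, 653 and 161. For snoRNA:lola-a the ratio was 0.716 in input and 3.66 in RIP, and for scaRNA:MeU4-A65 it was 0.967 and 4.82. For these less abundant members the part of unspliced host RNA in the counts was not tested.

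Length, which the choice of members did not use, ran from 49 to 511 bases with a median of 131. Of 43 tested members over 100 bases, 21 were depleted (48.8%) and 7 enriched (16.3%), with a median log2 fold change of -0.78. Of 23 tested members up to 100 bases, 5 were depleted (21.7%) and 2 enriched (8.70%), with a median of -0.23. Over all genes tested, 30.4% were depleted and 27.0% enriched. Longer members were also the more abundant in input (r = 0.39 and rho = 0.47 between length and log2 input CPM over 66 members), so length and level moved together. The log2 fold change itself had r = -0.15 and rho = -0.21 with length over the same 66 members. By chromosome, 41 of the 90 members lie on 2R, where 29 were tested, 10 depleted and 5 enriched.

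The rRNA guides with snoRNA:Psi or snoRNA:Me symbols and the snRNAs give a frame for these counts. This split is by symbol, and members such as the U49 copies also name an rRNA base in a synonym. Among tested members 39.4% were depleted and 13.6% enriched, and among all genes tested 30.4% and 27.0%. Of 104 tested pseudouridylation guides, 59 were depleted (56.7%) and 13 enriched (12.5%). Their median log2 fold change of -0.51 was close to the members' -0.58, but the share depleted was larger. Of 49 tested methylation guides, 9 were depleted (18.4%) and 10 enriched (20.4%), with a median of -0.08. Of 21 tested snRNAs, 16 were depleted (76.2%) and 5 did not pass, with a median of -2.43. Differences between these classes and the members were not tested.

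Transcripts that encode proteins of the snoRNA particles and of Cajal bodies went in both directions. Of 24 such genes found in the table, 8 were enriched (33.3%), 10 depleted (41.7%) and 6 did not pass, against 27.0% and 30.4% of all genes tested, with a median log2 fold change of -0.31. Of the 4 box C/D core proteins, Nop56 was enriched (123 ± 6.05 to 285 ± 15.7 CPM, SD, n = 3 each, log2 fold change 1.21), while Fib (-1.43), nop5 (-0.45) and hoip, which binds the kink-turn of these RNAs (-0.72), were depleted. Of the 4 box H/ACA core proteins, Nop60B (0.81), Gar1 (0.52) and Nop10 (0.61) were enriched and NHP2 (-0.23) did not pass.

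Among assembly and Cajal body genes, coil, which encodes the Cajal body scaffold coilin, was enriched (8.98 ± 1.46 to 21.6 ± 3.39 CPM, SD, n = 3 each, log2 fold change 1.26), as were spag (0.49) and CG10341 (0.73). The transcript of Smn, the survival motor neuron protein of snRNP assembly, was depleted from 24.4, 24.3 and 22.2 CPM to 7.25, 4.02 and 4.36 CPM (log2 fold change -2.19, SE 0.22, edgeR adjusted p = 1.33e-08). WDR79, whose protein binds scaRNAs and brings them to Cajal bodies, was depleted too (-1.25), as were Nopp140 (-0.46), rept (-0.62) and pont (-0.40), the last with overlapping groups and a call lost in 11 of 18 alternative fits. Its values were -0.44, -0.40 and -0.35 without input replicate 1, 2 or 3 and -0.28 and -0.32 without RIP replicate 1 or 3. Of the genes for trimming and precursor binding, the exosome nuclease gene Rrp6 was enriched (0.74), and Dis3 (-0.69) and La (-0.71) were depleted. Of all called genes of snoRNA particles and Cajal bodies, only Fib, Nop56, Nop60B, coil, Smn and WDR79 kept their call against a 1.5-fold change. Exons of other genes overlapped Nop60B and Dis3 on the same strand, and Nop10, CG10341, coil, Nopp140, WDR79 and Rrp6 on the opposite strand. How reads in such overlaps were counted is not stated in the sources used here.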

How the data were processed

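The deposited values are raw counts of reads per gene in 3 input and 3 Isha RIP libraries, beside FlyBase identifiers, exon positions and summed exon length from the authors. The tools named in the submitters' processing notes are featureCounts of Subread 2.0.0, HISAT2 2.2.1, cutadapt 2.9, Picard 2.22.2, R 4.1.0 and DESeq2 1.32.0, with build dm6. How strand, duplicates and multiply placed reads were treated is not stated in the sources used here. These settings decide how counts of overlapping genes and of near-identical copies are assigned.

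Groups came from the sample titles. Symbols came from RefSeq genes of dm6. Of the members, 87 matched by coordinates and 3 U3 genes by lying inside a RefSeq entry with 1 shared end. A host was the gene on the same strand whose span holds the member. Members, lists and tests were chosen with earlier results of these data known.

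The low-count filter was filterByExpr at a minimum count of 10. The 11764 genes left were scaled with TMM factors (0.987 to 1.01) and tested with edgeR's quasi-likelihood F-test, 2-sided, with Benjamini-Hochberg adjustment over all tested genes and calls at an adjusted p under 0.05. Each SE is the absolute log2 fold change divided by the root of F. CPM was scaled to library total and TMM factor, and pair ratios used CPM plus 0.1. The fit used edgeR 4.0.16 in R 4.3.3, with DESeq2 1.42.0 and limma 3.58.1 for alternatives, and was tested on simulated data. Replicates of a group differed by more than counting error (chi-square per degree of freedom 5.78 to 14.3) and counted as separate samples. Depth per library limits precision and stands in the report.

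Named members were all tested scaRNAs, symbols starting snoRNA:U3 (which takes in U31) or snoRNA:U14, up to 8 of the largest called changes in each direction among members averaging 10 CPM or more, and the 3 highest levels per group. Hosts of these and called snoRNP genes were named too. In all, 18 alternatives were run, covering scaling, filters, DESeq2, limma-voom, the replicate block, equal depth, overlapping genes, left-out libraries and a test against a 1.5-fold change. Of 25 listed snoRNP genes, Shq1 found no match.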

Additional observations from a re-analysis of the deposited data

How the results depend on the processing

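The counts of members called kept the same order, more depleted than enriched, in all 18 alternatives, with 22 to 27 depleted and 4 to 11 enriched. The count of 4 enriched came from the test against a 1.5-fold change. Leaving out 1 library gave 6 (without input replicate 2) to 11 enriched and 23 to 27 depleted. The median log2 fold change of tested members was negative in every fit that gave one, at -0.78 with at least 50 counts in at least 3 libraries, -0.43 with libraries thinned to equal depth, and -0.66 to -0.40 with 1 library left out (-0.45 without input replicate 1, -0.40 without RIP replicate 2). With the replicate block, 10 members were enriched and 25 depleted. Same-numbered libraries did not deviate together (correlations of -0.009, -0.028 and -0.035), nor did every library correlate best with its own number, so the numbers were not taken to pair samples.

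Of 747 values of 42 members under alternatives, 706 kept their direction and side of the threshold, 25 lost a call, 7 gained one and 9 changed sign. Thinning moved scaRNA:MeU2-G25 to 0.019, and leaving out 1 library gave it -0.36 to 0.022. The same ranges were -0.72 to 0.0075 for scaRNA:MeU2-C28, -0.0070 to 0.21 for snoRNA:Tudor-SN-a and -0.97 to 0.093 for snoRNA:U31:54Eb, and snoRNA:Or-aca4, near 0 throughout, had -0.041 with upper-quartile factors, -0.0062 with no count filter and -0.12 to 0.10 with 1 library left out, none of them called in the main test. Among these 42 members, the test against a 1.5-fold change ended the calls of scaRNA:PsiU1-6, scaRNA:PsiU2-35.45, scaRNA:MeU2-C41, snoRNA:2R:9445410, snoRNA:Or-CD2, snoRNA:U31:54Ec, snoRNA:SC35-a and snoRNA:Dek-a, the last looked at after its values were seen (-0.65). The depleted member of smallest change, snoRNA:Pi4KIIalpha-a, was not among the 42. It had overlapping groups (log2 fold change -0.34, SE 0.14, edgeR adjusted p = 0.0407). Among hosts, the test against a 1.5-fold change ended the calls of Prp39, Prp8, Stt3A, Tudor-SN, Usp10, anchor, bur and mask. Over all genes tested, 3176 were enriched and 3573 depleted, against 1345 and 1703 by the test against a 1.5-fold change and 2053 and 2343 without genes with overlapping exons, where fewer genes were tested. Counts of the less abundant members in RIP were low: the median count per RIP library was 38.0 over all tested members and 21.0 over those under 10 CPM.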
